A study of Macaca mulatta with 8 samples.

Results

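Tumour necrosis factor (TNF), its receptors TNFRSF1A and TNFRSF1B, and 4 genes of the NF-kB system that acts downstream of them (TNFAIP3, NFKBIA, NFKB1 and RELB) were followed through 8 single-cell RNA libraries of macaque retina. The genes were taken by symbol, and all 7 were among the 26533 features counted. They were chosen by their counts of unique molecular identifiers (UMIs) per cell class, area and eye, so those levels are given as a description, and nothing is read from counts of calls over them. Each level is in CPM, the UMIs of a gene per 1000000 UMIs summed over the cells of 1 class in 1 library.

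The libraries came from 2 male macaques. NHP1, aged 5 years, gave 1 library per eye that the labels call uninjected, from eyes that had received subretinal AAV2-CAG-hRPE65 (voretigene neparvovec). NHP2, aged 6 years, gave 3 libraries per eye, from retina without vector by its label, from the bleb raised with AAV8-GRK1-hRPGR and from the bleb raised with AAV8-GRK1-mScarlet. The study calls the GRK1 promoter photoreceptor-specific, but it also detected transgene in RPE cells and, at a low level, in Müller glia of the blebs. The hRPGR insert is a human retinitis pigmentosa gene in a codon-optimized form (counted as coRPGR), and mScarlet is a red fluorescent reporter. By the study's methods every eye also received the corticosteroid triamcinolone, and the left eyes received intravitreal adalimumab, an antibody that binds TNF. There was thus no eye without vector and no eye without steroid, and replicates 1 and 2 of an area are the right and left eye of the same animal. Differences between areas therefore describe 1 animal, and the eye cannot be told apart from adalimumab.

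TNF is made as a membrane protein and shed as a soluble cytokine. Its receptor TNFRSF1A is found on many cell types and can start both survival and death signalling, whereas TNFRSF1B is mainly a receptor of immune and endothelial cells. Receptor signalling frees NF-kB dimers from their inhibitors, and the freed dimers induce NFKBIA (the inhibitor IkB-alpha) and TNFAIP3 (the ubiquitin-editing enzyme A20), which then shut the response down. NFKB1 encodes p105 and its product p50 of the canonical pathway, and RELB is the partner of NFKB2 in the non-canonical pathway. In retina, microglia and infiltrating macrophages are the usual sources of TNF.

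NF-kB consensus matches upstream of the genes are shown because 2 of the feedback genes are classical NF-kB targets. In the 250 bases before the annotated gene start of the RefSeq Mmul_10 annotation, the NF-kB consensus was searched on both strands. It occurred before 3 of the 7 genes, NFKBIA, TNFAIP3 and RELB, against 9.55% of the 20782 windows of the same length before annotated genes. The stretches around the matches lie at chr7:97479288-97479337 on the minus strand (NFKBIA), chr4:41481621-41481663 on the plus strand (TNFAIP3) and chr19:45041360-45041481 on the plus strand (RELB). They are written 5′ to 3′ in the direction of the gene, with the matching bases in capitals.
NFKBIA: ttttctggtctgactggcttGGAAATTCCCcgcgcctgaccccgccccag
TNFAIP3: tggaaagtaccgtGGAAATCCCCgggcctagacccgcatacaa
RELB: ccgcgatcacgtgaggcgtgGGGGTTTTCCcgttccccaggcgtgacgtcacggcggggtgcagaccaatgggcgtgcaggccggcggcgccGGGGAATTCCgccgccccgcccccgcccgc
The match of NFKBIA begins 96 bases before the gene start, that of TNFAIP3 237 bases before it, and those of RELB 110 and 38 bases before it. A match is a description of the letters and not a bound site. The absence of these letters before TNF, TNFRSF1A, TNFRSF1B and NFKB1 says nothing about the factor, and the result depends on where the annotation puts each gene start.

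After filtering and doublet removal 83192 cells were kept, from libraries of 90634306 to 146519011 UMIs with median depths of 4606 to 6036 UMIs per cell. Cells were clustered without the 7 genes and named "-like" from marker genes, and 23.7% stayed unnamed. Rod-like cells made up 52.9% of cells, Müller glia-like cells 8.22% and myeloid-like cells 2.38%. Each cell type name rests on rebuilt clusters and not on the study's own annotation. Some libraries went against their labels: huRPE65 UMIs were found in 47.5% of the rod-like cells of the library labelled NHP1 uninjected, left eye, and coRPGR UMIs in 19.4% of those of the library labelled NHP2 uninjected, right eye. In the right mScarlet bleb 4.61% of rod-like cells held a coRPGR UMI. Of 86960 distinct cell barcodes, 4685 occurred in more than 1 library. Each pair of libraries shared 1.39 to 2.16% of the barcodes of the smaller one, and the right hRPGR and right uninjected libraries shared 1.58%.

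TNF was mainly a myeloid transcript. Of its 3436 UMIs in cells, 92.3% lay in myeloid-like cells and 4.42% in B-like cells, which were 0.124% of cells. The myeloid-like share was 97.4 to 99.6% in 5 libraries, 79.8% in the right hRPGR bleb, and 87.7% (right) and 82.1% (left) in the mScarlet blebs. Rod-like cells, the majority of the retina, held 24 TNF UMIs and Müller glia-like cells 6. Barcodes too small to be cells, which measure free RNA, held TNF at 0.113 to 4.53 CPM. The mean level over libraries was 443 CPM in myeloid-like cells, 288 CPM in B-like cells of 3 libraries and 13.3 CPM in T/NK-like cells. The ranges of the myeloid-like and B-like classes overlapped, while the lowest B-like library, at 126 CPM, lay above the highest T/NK-like library at 33.8 CPM.

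**Figure D1:**
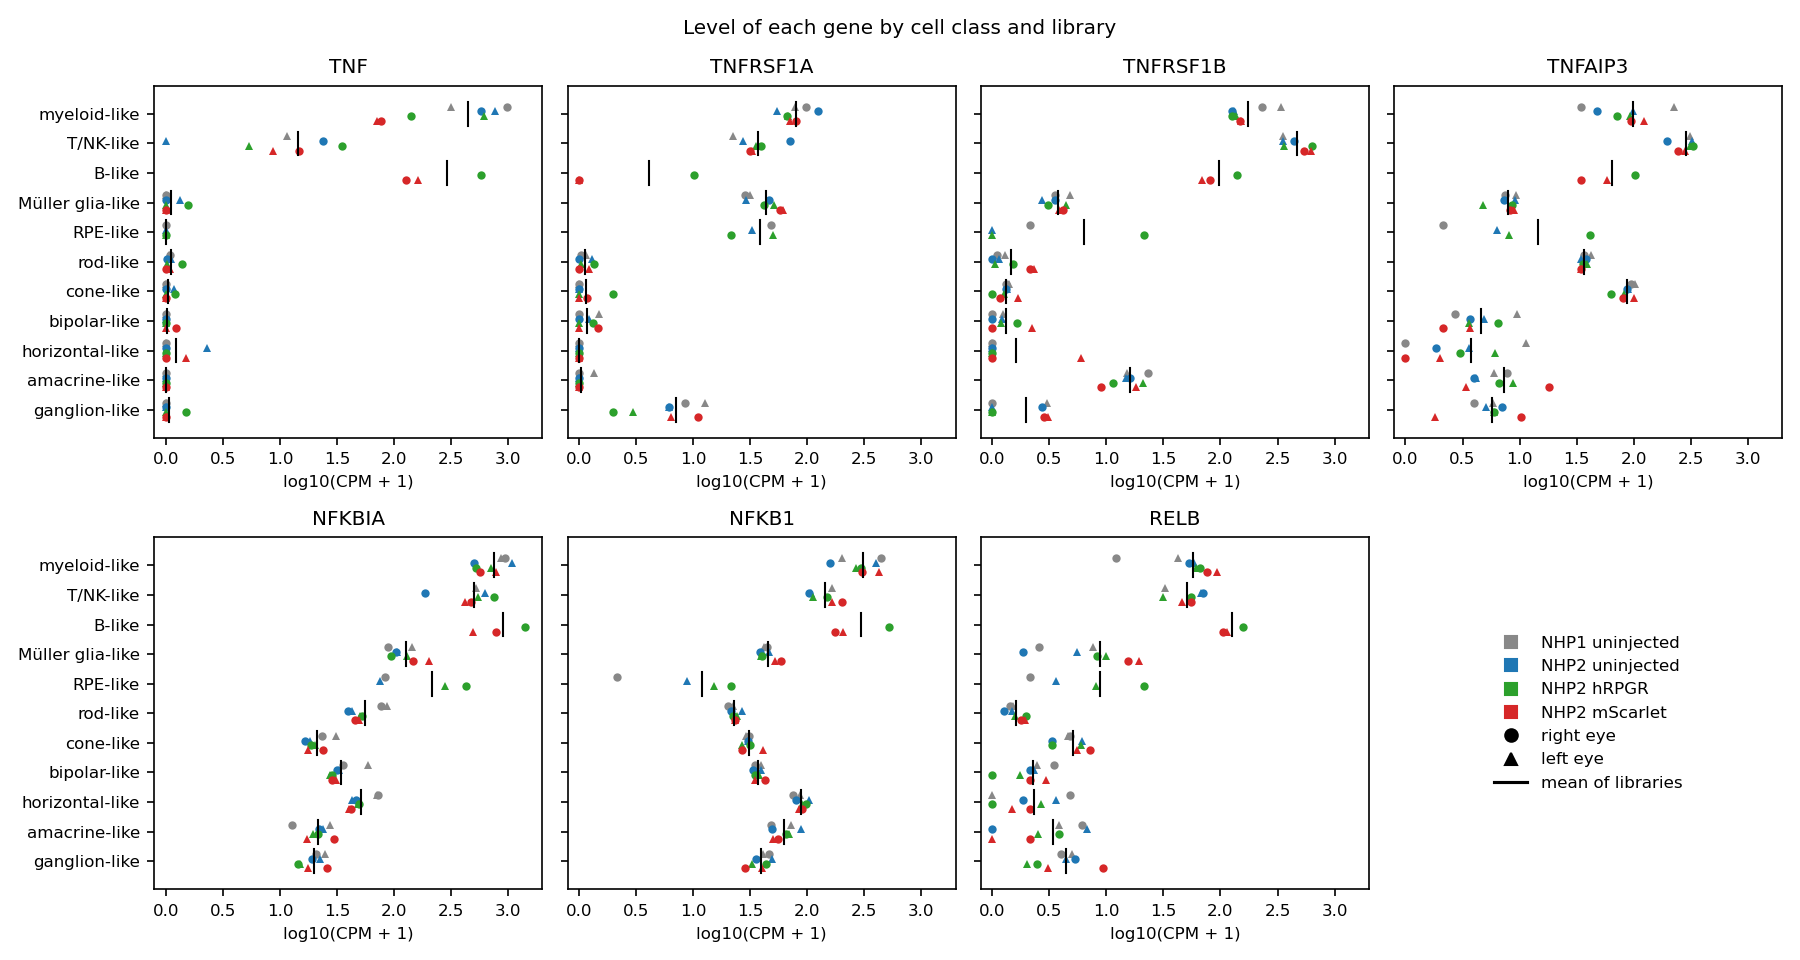
Level of each of the 7 genes by cell class, as log10(CPM + 1) on the x axis, with 1 point per library coloured by area, the eyes as separate symbols, and the mean of libraries as a vertical bar. TNF is near 0 outside the immune classes, whereas NFKBIA and NFKB1 have points above 0 in each class shown.

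In myeloid-like cells TNF stood at 577 CPM in the right and 764 CPM in the left uninjected area of NHP2. In the hRPGR blebs it was 139 CPM (right) and 616 CPM (left). The mScarlet blebs had the lowest levels, 76.4 CPM (right) and 70.0 CPM (left). NHP1 stood at 986 CPM in the right eye, from 32 cells, and 317 CPM in the left. The mScarlet blebs lay below each of the other 6 libraries, the uninjected and hRPGR levels of NHP2 overlapped in range, and the hRPGR blebs stood far apart between the eyes.

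The share of myeloid-like cells with a TNF UMI, after every cell was thinned to 1500 UMIs, was again lowest in the mScarlet blebs. It was 25.0% (exact binomial 95% interval 16.9 to 34.7%) and 32.3% (22.9 to 42.7%) in the right and left uninjected areas of NHP2. In the hRPGR blebs it was 8.01% (5.70 to 10.9%) and 31.0% (24.1 to 38.5%). In the mScarlet blebs it was 6.20% (4.31 to 8.60%) and 6.24% (4.25 to 8.78%). These intervals cover counting error only. The uninjected areas had 25 and 30 thinned cells with a TNF UMI and the mScarlet blebs 33 and 30, so that only the share, not the number, was lower after mScarlet.

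Among myeloid-like cells with a TNF UMI, counted without thinning, the TNF level was 1101 and 1096 CPM in the uninjected areas of NHP2. It was 416 and 1028 CPM in the hRPGR blebs and 260.0 and 194 CPM in the mScarlet blebs. There were 398 TNF UMIs in 34 such cells and 454 in 44 in the uninjected areas, against 355 in 91 and 381 in 103 in the mScarlet blebs. The mScarlet blebs thus had the lower level within these cells as well. Their TNF-positive cells were also deeper, with medians of 15262 and 19038 UMIs against 11259.5 and 8282, and the part of depth in these levels was not tested.

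Per captured cell of all classes, TNF UMIs were not fewer in the mScarlet blebs than in the uninjected areas of NHP2. Per 10000 cells of all classes there were 427 TNF UMIs in each uninjected area of NHP2, 448 (right) and 860 (left) in hRPGR blebs, and 459 and 453 in mScarlet blebs. Myeloid-like cells were 1.06% and 0.851% of cells in the uninjected areas, 4.07% and 1.81% where hRPGR was given, and 6.02% and 4.69% where mScarlet was given. The mScarlet blebs thus had the most myeloid-like cells with the lowest TNF level in them. In NHP1 the TNF UMIs per 10000 cells were 181 and 160.

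**Figure D2:**
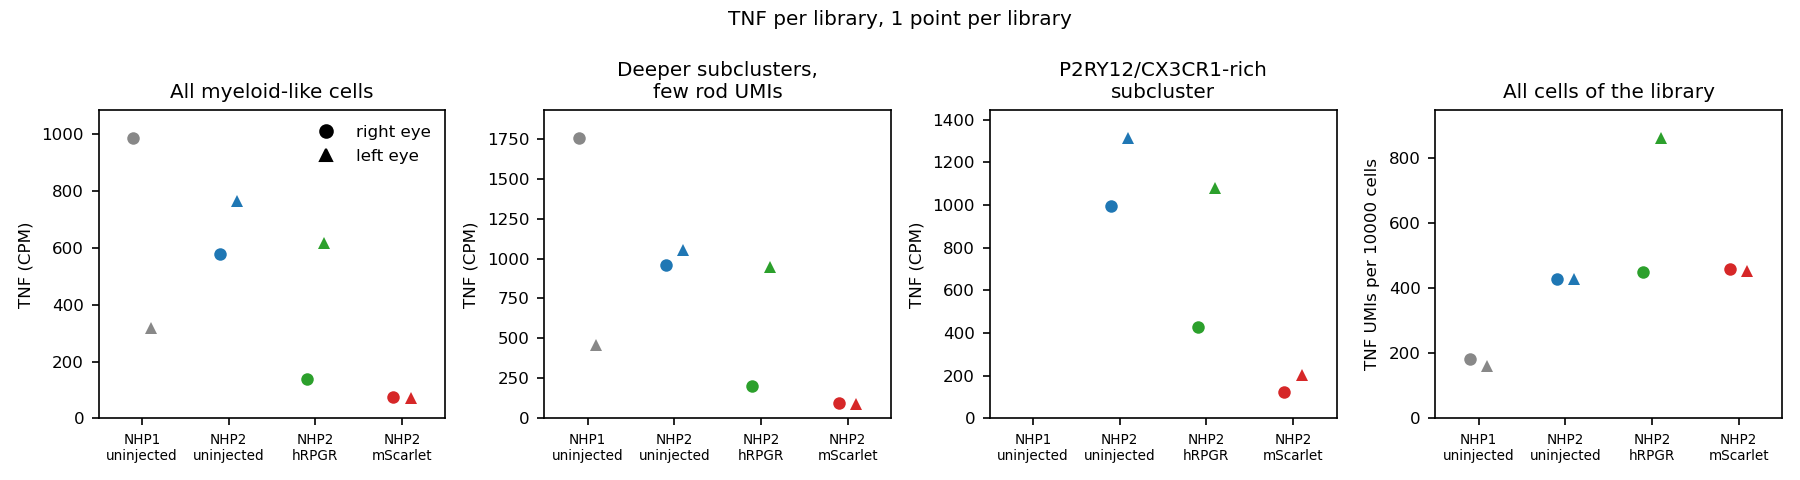
TNF by area, 1 point per library, with right and left eyes as separate symbols. Panels show the level (CPM) in all myeloid-like cells, in deeper subclusters with few rod UMIs and in the subcluster richest in P2RY12 and CX3CR1, and the TNF UMIs per 10000 cells of the library, and the mScarlet blebs are lowest in the first panel (76.4 and 70.0 CPM) and not in the last (459 and 453).

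In the fit over the 6 NHP2 libraries, TNF in myeloid-like cells was lower in the mScarlet blebs than in the uninjected areas by a log2 difference of -3.04 ± 0.58 (SE). It differed by -0.82 ± 0.55 between hRPGR blebs and uninjected areas and by -2.22 ± 0.57 between mScarlet and hRPGR blebs. Both blebs were set against the same uninjected libraries. The right hRPGR bleb sat near the mScarlet blebs and the left one near the uninjected areas, so the hRPGR value rests on which eye is used. With the left or right hRPGR library left out, the hRPGR area is a single library assumed to vary like the other groups. The difference from the uninjected areas was then -2.31 or -0.08, and that between mScarlet and hRPGR blebs -0.73 or -2.96.

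The myeloid-like class was mixed. Its RNA held all 8 rod markers, at 13675 and 7760 CPM in the uninjected areas and 3323 and 3601 CPM in the mScarlet blebs. The homeostatic microglia list was at 1679.7 and 930.5 CPM in the uninjected areas, 583 and 1047 CPM in the hRPGR blebs and 659 and 552 CPM in the mScarlet blebs. A list of immediate-early genes, which respond to cell dissociation, was at 11291 and 15880 CPM in the uninjected areas. It was 8115 and 14361 CPM in the hRPGR blebs, 8404 and 8372 CPM in the mScarlet blebs, and 14083 and 16809 CPM in NHP1. The part of either list in the TNF levels of the areas was not tested. Of 14 subclusters, 7 with 1220 cells held rod markers at 2000 CPM or more. In the 744 cells of 6 deeper subclusters with few rod UMIs, TNF was at 963 and 1055 CPM in the uninjected areas, 204 and 949 CPM in the hRPGR blebs and 97.7 and 86.8 CPM in the mScarlet blebs. TNF was therefore again lowest in the mScarlet blebs, with a log2 difference of -3.41 from the uninjected areas. TNF was not called in that fit, in which 0.0213% of 9378 genes were.

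A subcluster of 244 cells with CX3CR1 at 544 CPM and P2RY12 at 415 CPM, genes of resting microglia, had TNF at 556 CPM, and TNF was itself among its leading genes, with the chemokines CCL3 and CCL4L1. Within it TNF was at 995 CPM (34 cells) and 1313 CPM (29 cells) in the uninjected areas. In the hRPGR blebs it was 426 CPM (24 cells) and 1080.2 CPM (52 cells). In the mScarlet blebs it was 126 CPM (55 cells) and 203 CPM (49 cells). The order of the areas inside this subcluster was that of the whole class. Of the deeper cells it held 34 of 35 (right) and 29 of 41 (left) in the uninjected areas, against 55 of 196 and 49 of 209 in the mScarlet blebs.

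A second subcluster, of 61 cells of which 45 came from the left eye of NHP1, was led by CD163, RETN and VSIG4, genes of blood-derived and perivascular macrophages, and had TNF at 671 CPM. Subclusters with GPNMB, FN1 and CHIT1, and with GPNMB and SPP1, among their 10 leading genes had TNF at 75.7 and 147 CPM. A shallower subcluster of 682 cells also had GPNMB among its leading genes, with TNF at 40.8 CPM and rod markers at 2452 CPM. It held 33 and 10 cells of the uninjected areas, 160 and 45 of the hRPGR blebs, and 256 and 160 of the mScarlet blebs. The deeper GPNMB subclusters together held 1 and 7 cells of the uninjected areas, 104 and 14 of the hRPGR blebs, and 136 and 147 of the mScarlet blebs. The deeper cells of the areas thus lay in different subclusters. The immediate-early list stood at 17928 CPM in the CX3CR1-rich and 21769.7 CPM in the CD163-led subcluster, against 9909 and 8766 CPM in the deeper GPNMB subclusters. Its part in the TNF levels was not tested. A subcluster of 20 cells led by CCR7, LAMP3 and CCL17, genes of mature dendritic cells, had TNF at 3.05 CPM but NFKBIA at 2628 CPM, NFKB1 at 1002 CPM, TNFAIP3 at 487 CPM and RELB at 292 CPM. Its cells came from the right hRPGR bleb (6 cells) and the mScarlet blebs (3 and 11 cells). The subclusters were made from the same cells, so their differences are a description.

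The receptor TNFRSF1A was mainly a transcript of Müller glia and myeloid cells. Müller glia-like cells held 53.0% of its 3615 UMIs and myeloid-like cells 33.4%. Its mean level was 78.8 CPM in myeloid-like, 42.3 CPM in Müller glia-like, 37.2 CPM in RPE-like and 35.9 CPM in T/NK-like cells, and these neighbours overlapped in range. Rod-, cone-, bipolar-, amacrine- and horizontal-like cells each averaged below 0.19 CPM. Ganglion-like cells averaged higher than these neurons, at 6.00 CPM (0.992 to 11.6 CPM, 77 UMIs in 434 cells). In each hRPGR bleb they held only 2 UMIs (0.992 and 1.99 CPM), below the free RNA of the same libraries (3.06 and 2.57 CPM). B-like cells held 1 TNFRSF1A UMI in 3 libraries. Free RNA held 0.396 to 3.63 CPM.

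In Müller glia-like cells TNFRSF1A stood at 45.2 and 27.9 CPM in the right and left uninjected areas of NHP2. It was 40.7 and 49.7 CPM in the hRPGR blebs and 56.9 and 60.4 CPM in the mScarlet blebs. NHP1 had 27.6 and 30.2 CPM. The mScarlet blebs were the highest of the 8 libraries. The fitted log2 difference from the uninjected areas was 0.62 ± 0.24 for mScarlet and 0.33 ± 0.24 for hRPGR. Without the right uninjected library the mScarlet value was 1.01, so it rests on which uninjected library is used. In myeloid-like cells TNFRSF1A ranged from 53.8 to 123 CPM, with the extremes in the 2 uninjected areas of NHP2, so that the areas overlapped.

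TNFRSF1B, the second receptor, was mainly a lymphocyte and myeloid transcript. T/NK-like cells held 45.5% of its 6020 UMIs and myeloid-like cells 41.2%. The T/NK-like mean was 472 CPM in 7 libraries, and its lowest library, at 350 CPM, lay above the highest myeloid-like library at 337 CPM. Among neurons amacrine-like cells stood apart with 8.01 to 22.0 CPM, while horizontal-, bipolar- and cone-like cells averaged 0.311 to 0.623 CPM. In myeloid-like cells of NHP2 the 6 libraries lay between 126 and 152 CPM, and NHP1 had 231 and 337 CPM.

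In rod-like cells TNFRSF1B had 0 and 4 UMIs in the uninjected areas, 15 and 2 UMIs in the hRPGR blebs and 35 and 47 UMIs in the mScarlet blebs. The mScarlet levels of 1.13 and 1.34 CPM did not exceed the 1.26 and 1.96 CPM of free RNA in the same libraries. TNFRSF1A, with free RNA of 1.34 and 3.63 CPM there, stood at only 0 and 0.23 CPM in the same rods. The part of free RNA in the rod TNFRSF1B levels was not tested. The fitted log2 difference of 4.21 from the uninjected areas was 3.12 without the right and 8.35 without the left uninjected library.

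TNFAIP3, which restrains NF-kB after TNF signalling, had a pattern of its own. Its highest mean was in T/NK-like cells (286 CPM), followed by myeloid-like (97.6 CPM), cone-like (86.4 CPM) and B-like (63.9 CPM) cells. Cones lay between 62.9 and 102 CPM in the 8 libraries, wholly above rods at 33.2 to 40.9 CPM. Other retinal neurons and Müller glia averaged 2.74 to 6.96 CPM. Because rods are abundant they held 48.4% of the 19016 TNFAIP3 UMIs. Free RNA overlapped the rod range in the left NHP1 (40.7 CPM), left uninjected NHP2 (35.3 CPM) and right hRPGR (34.4 CPM) libraries. In the other libraries it held 7.92 to 13.5 CPM, below every rod level. The part of free RNA in the rod levels was not tested.

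In myeloid-like cells TNFAIP3 stood at 46.4 and 97.6 CPM in the uninjected areas of NHP2, 70.4 and 92.0 CPM in the hRPGR blebs and 93.2 and 123 CPM in the mScarlet blebs. NHP1 had 33.8 and 225 CPM. In each of the 4 pairs of eyes the left was the higher, and the NHP1 pair also differed in huRPE65 UMIs. The fitted log2 difference was 0.75 ± 0.32 between mScarlet blebs and uninjected areas and 0.86 ± 0.28 between left and right eyes. Without the left uninjected library the former was 1.34. Cones differed by -0.08 ± 0.16 and rods by -0.15 ± 0.11 between mScarlet blebs and uninjected areas.

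NFKBIA, the inhibitor that NF-kB itself induces, was found in every class. Mean levels were 896 CPM in B-like, 744 CPM in myeloid-like, 503 CPM in T/NK-like and 214 CPM in RPE-like cells, with overlapping ranges. Müller glia-like cells averaged 126 CPM, and their lowest library (87.6 CPM) lay above the highest rod-like library (85.2 CPM). Rods of NHP1 stood at 75.2 and 85.2 CPM and those of NHP2 at 38.2 to 51.7 CPM, without overlap between the animals. Cones, amacrine- and ganglion-like cells averaged 19.0 to 20.7 CPM, and free RNA 14.3 to 66.8 CPM. Cells of unnamed clusters held 171 and 397 CPM in the mScarlet blebs and 27.1 to 91.0 CPM elsewhere. These pooled clusters differed in make-up between libraries. One that scored best as plasma cells, at 4.55 times the usual depth, had 82 and 250 cells in the mScarlet blebs. It had 112 and 3 cells in the hRPGR blebs and 0 to 4 in the uninjected libraries, and its part in these levels was not tested.

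Müller glia-like NFKBIA stood at 103 and 105 CPM in the uninjected areas, 93.7 and 129 CPM in the hRPGR blebs and 145 and 199.9 CPM in the mScarlet blebs. NHP1 had 87.6 and 142 CPM. Both mScarlet libraries were above the other 6. The fitted log2 difference between mScarlet blebs and uninjected areas was 0.65 ± 0.21, that between mScarlet and hRPGR blebs 0.55 ± 0.21 and that between left and right eyes 0.42 ± 0.13. In myeloid-like cells the level was 503 and 1070.1 CPM in the uninjected areas, 523 and 705 CPM in the hRPGR blebs and 567 and 775 CPM in the mScarlet blebs. NHP1 had 941 and 872 CPM, so the left eye was the higher in the 3 areas of NHP2 and the lower in NHP1.

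NFKB1 was likewise broad, with means of 310.1 CPM in myeloid-like, 298 CPM in B-like and 142 CPM in T/NK-like cells. Horizontal-like cells led the neurons at 74.7 to 102 CPM. The lowest T/NK-like library (104 CPM) lay above that range, whereas amacrine-like cells at 47.3 to 86.6 CPM overlapped it. Rods were lowest among neurons, at 19.3 to 25.6 CPM. In Müller glia-like cells NFKB1 stood at 37.6 and 44.9 CPM in the uninjected areas, 39.2 and 38.6 CPM in the hRPGR blebs and 57.3 and 51.3 CPM in the mScarlet blebs. NHP1 had 43.3 and 40.8 CPM. The mScarlet blebs again lay above the rest, by a fitted log2 difference of 0.31 ± 0.12 from the uninjected areas.

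RELB, of the non-canonical branch, was highest in B-like cells at 105 to 156 CPM, above every myeloid-like library (11.3 to 91.5 CPM). T/NK-like cells averaged 50.1 CPM. Rods and bipolar cells averaged 0.619 and 1.28 CPM. In myeloid-like cells RELB was 52.2 and 57.2 CPM in the uninjected areas, 64.9 and 60.3 CPM in the hRPGR blebs and 74.7 and 91.5 CPM in the mScarlet blebs. NHP1 had 11.3 and 41.3 CPM. Here the 3 areas of NHP2 did not overlap, and the fitted log2 difference between mScarlet blebs and uninjected areas was 0.75 ± 0.21. In the deeper subclusters with few rod UMIs RELB was at 83.3 and 79.9 CPM in the uninjected areas, 98.0 and 70.5 CPM in the hRPGR blebs and 92.8 and 109 CPM in the mScarlet blebs. The hRPGR blebs overlapped the other areas there, and the mScarlet difference was 0.34 ± 0.25.

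In Müller glia-like cells RELB was counted at 4 and 42 UMIs in the uninjected areas (0.849 and 4.57 CPM). The hRPGR blebs had 39 and 50 UMIs (7.34 and 8.93 CPM) and the mScarlet blebs 74 and 98 UMIs (14.5 and 18.3 CPM). NHP1 had 6 and 51 UMIs (1.55 and 6.61 CPM). The areas of NHP2 did not overlap, and the left eye was the higher in each of the 4 pairs. The NHP1 pair also differed in huRPE65 UMIs. The fitted log2 difference was 2.34 ± 0.51 for mScarlet and 1.41 ± 0.53 for hRPGR, each against the same uninjected areas, and 0.94 ± 0.37 for left against right eyes. Without the right uninjected library the mScarlet value was 1.78 and without the left 4.15, and for hRPGR the latter was 3.21.

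**Figure D3:**
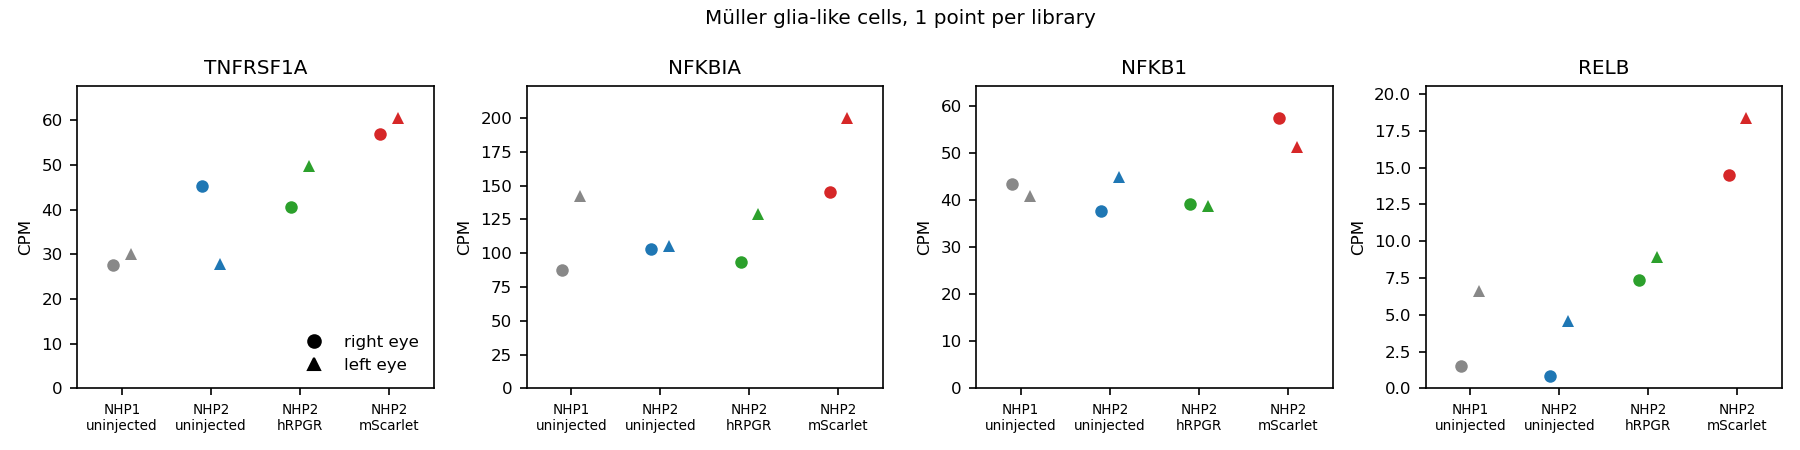
Levels of TNFRSF1A, NFKBIA, NFKB1 and RELB in Müller glia-like cells (CPM, each axis from 0) by area, 1 point per library, with right and left eyes as separate symbols. In the 4 panels both mScarlet blebs lie above the other 6 libraries.

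Beside these glial levels, the RNA of Müller glia-like cells also held myeloid markers, at 582 and 449 CPM in the uninjected areas, 722 and 788 CPM in the hRPGR blebs and 1147 and 1076 CPM in the mScarlet blebs. In the mScarlet blebs 9 of the 11 myeloid markers were detected, with CX3CR1 and ITGAM at 0. T/NK markers stood at 5.80 to 9.83 CPM over all libraries. The part of these markers in the glial levels was not tested.

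Over the 5 classes fitted (rod-, cone-, bipolar-, Müller glia- and myeloid-like), 25 gene-by-class tests of the 7 genes passed the filter on low counts. Between mScarlet blebs and uninjected areas edgeR's quasi-likelihood test called 1 of 25, TNF in myeloid-like cells, beside 1.91% of the 62906 tests of all genes. The corresponding counts were 0 of 25 between hRPGR blebs and uninjected areas (0.0127% of all tests), 0 of 25 between mScarlet and hRPGR blebs (0.329%) and 0 of 25 between left and right eyes (0.00318%). At an unadjusted p under 0.05 there were 9, 2, 4 and 4 of 25 in the same order, beside 17.6%, 5.22%, 10.1% and 3.52% of all tests. DESeq2, run without that filter, called 3, 0, 1 and 0 of the members' tests, beside 4.91%, 0.262%, 0.987% and 0.0427% of all. Since these levels chose the genes, nothing is read from the counts. Without any 1 of the uninjected or mScarlet libraries TNF lost its call, at log2 differences of -3.21 to -2.85.

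**Figure D4:**
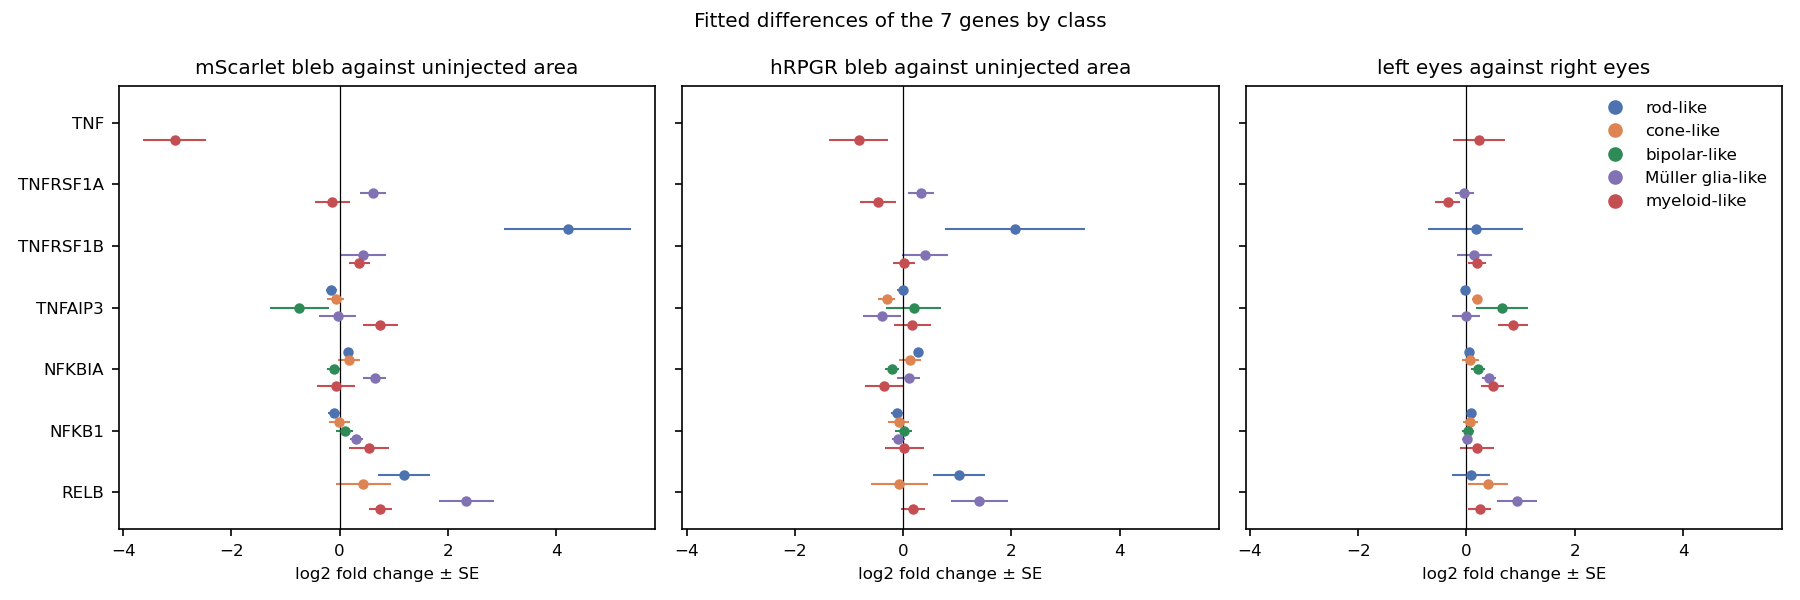
Fitted log2 fold changes (points) with standard errors (bars) of the 7 genes in 5 cell classes, for mScarlet blebs and hRPGR blebs, each against the uninjected areas, and for left against right eyes. The mScarlet panel spans from -3.04 for TNF in myeloid-like cells to 4.21 for TNFRSF1B in rod-like cells, the latter from 0 to 47 UMIs per library.

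The eyes were compared over all 8 libraries, with area and animal as a term. The NHP1 pair also differed in vector transcript, with huRPE65 UMIs in 0.0147% of right and 47.5% of left rod-like cells. The uninjected pair of NHP2 differed in coRPGR, at 19.4% (right) and 0% (left). In these pairs the eye cannot be told apart from the vector transcript. NFKBIA in myeloid-like cells differed by 0.49 ± 0.21 (left minus right), with the left higher in 3 of 4 pairs, beside the 0.86 ± 0.28 of TNFAIP3. TNF in myeloid-like cells differed by 0.23 ± 0.48 between left and right eyes, and by -0.42 or -0.41 without the right or left hRPGR library. TNFRSF1A and TNFRSF1B differed by -0.35 ± 0.22 and 0.19 ± 0.17. The immediate-early list in Müller glia-like cells was also the higher in each left eye, at 3105 against 1004 CPM in NHP1, 5140.4 against 1289 CPM in the uninjected area, 4318 against 1611 CPM in the hRPGR bleb and 2430 against 1747 CPM in the mScarlet bleb. The part of these genes, which respond to cell dissociation, in the glial differences between eyes was not tested.

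The other genes of the pathway, a list of 40 genes in the files, gave 7 calls in 155 tests between mScarlet blebs and uninjected areas, 6 higher and 1 lower. The list was chosen with earlier results of these data known, so its calls between areas are a description and no excess is read from their counts. There were 37 at an unadjusted p under 0.05, a rule that 17.6% of all tests passed. In Müller glia-like cells BIRC3, which encodes the ubiquitin ligase cIAP2 of the receptor complex, rose from 2.55 and 2.83 CPM to 26.3 and 26.9 CPM (log2 fold change 3.21 ± 0.30, edgeR adjusted p = 0.0239). SOD2, the mitochondrial superoxide dismutase and a known NF-kB target, rose from 54.3 and 57.8 CPM to 171 and 275 CPM (1.91 ± 0.23, edgeR adjusted p = 0.0397). In these cells 2 of 33 tested list genes passed, beside 0.325% of all genes. Myeloid markers in the same cells went from 582 and 449 CPM to 1147 and 1076 CPM, and their part in the BIRC3 and SOD2 levels was not tested.

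In myeloid-like cells 4 of 38 list genes passed, beside 6.09% of all genes. BIRC3 rose from 4.35 and 15.1 CPM to 56.8 and 105 CPM (log2 fold change 3.25 ± 0.61, edgeR adjusted p = 0.0203). CFLAR, which encodes the caspase-8 inhibitor FLIP, rose by 1.16 ± 0.24 (edgeR adjusted p = 0.0244), and NFKBIE, the inhibitor IkB-epsilon, by 1.07 ± 0.24 (edgeR adjusted p = 0.0370). The neutrophil chemokine CXCL8 fell from 704 and 967 CPM to 174 and 199.5 CPM (-2.01 ± 0.40, edgeR adjusted p = 0.0229). In the right and left hRPGR blebs BIRC3 stood at 52.6 and 22.4 CPM and CXCL8 at 307 and 738 CPM. CFLAR stood there at 206 and 195 CPM and NFKBIE at 32.1 and 34.8 CPM. None of these 4 myeloid calls held without the right uninjected library, in which rods carried coRPGR. In the deeper myeloid subclusters, whose cells lay in different subclusters by area, 0 of 37 list genes were called, with BIRC3 at 2.98, CFLAR at 0.94, NFKBIE at 0.78 and CXCL8 at -2.36. Over both uninjected libraries left out in turn, BIRC3 in myeloid-like cells was 2.59 to 4.33. Both glial calls were lost without the left mScarlet library, and of 11 alternatives BIRC3 in glia kept its call in 7 and SOD2 in 5.

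In rod-like cells 1 of 29 list genes passed, beside 1.90% of all genes. TRADD, the adaptor that binds TNFRSF1A, rose from 1.53 and 1.43 CPM to 4.41 and 5.66 CPM (1.69 ± 0.29, edgeR adjusted p = 0.0480), while TNFRSF1A itself was at 0 and 0.23 CPM in the rods of the mScarlet blebs. The TRADD call was lost without the right uninjected library, at 1.79. Of 8 immediate-early genes tested in rods, DUSP1, FOS, JUN and FOSB were higher in the mScarlet blebs (log2 fold changes 1.44 to 2.80). No list gene passed in cone- or bipolar-like cells.

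The list gave 0 calls in 155 tests between hRPGR blebs and uninjected areas (12 at an unadjusted p under 0.05, 3 by DESeq2). Between mScarlet and hRPGR blebs it gave 0 in 155 (20 and 2), and between left and right eyes 0 in 153 (8 and 0). The shares of all tests at an unadjusted p under 0.05 were 5.22%, 10.1% and 3.52% in these comparisons. In Müller glia-like cells of the hRPGR blebs, BIRC3 stood at 14.5 and 8.40 CPM and SOD2 at 132 and 131 CPM, between the uninjected and mScarlet levels.

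Within libraries, myeloid-like cells with a TNF UMI were compared with those without, a split that the choice of the genes had not used. TNF-positive cells numbered 11 to 103 per library. The other 6 genes were all higher in TNF-positive cells, and 17 of 33 tested list genes were higher and 0 lower, but 35.8% of the 9019 genes tested were called. TNF-positive cells were also deeper, with medians of 7619 to 19038 UMIs against 2009 to 5158.5, and 8 of 8 immediate-early genes were higher in them.

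NFKBIA was at 868 to 1520.0 CPM in TNF-positive cells and at 100 to 685 CPM in the others, higher in 8 of 8 libraries and without overlap. Its log2 fold change was 2.17 ± 0.28 (edgeR adjusted p = 4.81e-05). NFKB1 followed at 1.99 ± 0.35 (edgeR adjusted p = 0.000512) and TNFAIP3 at 1.50 ± 0.21 (edgeR adjusted p = 9.27e-05). TNFRSF1B, RELB and TNFRSF1A had smaller differences of 1.02, 0.93 and 0.89. Among the other pathway genes CCL2, a monocyte chemokine, PTGS2, the inducible cyclooxygenase, and CXCL8 differed by 2.96, 2.83 and 2.52, and IL6 by 2.16.

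The differences of the 6 genes, where tested, were smaller with other choices of cells, and the cause was not tested. With cells thinned to 1500 UMIs before the split, in 7 libraries, NFKBIA (1.45 ± 0.15) and NFKB1 (1.47 ± 0.24) were the called members. In that fit 41.1% of all genes tested were called. The TNF-positive cells of this split had medians of 7319 to 13828.5 UMIs before thinning, against 2471 to 6683 in the others. In the deeper subclusters with few rod UMIs the fit held 5 libraries, the left NHP1 library and the hRPGR and mScarlet blebs. The uninjected areas of NHP2 had 5 and 6 TNF-negative cells there and did not enter. In these deeper subclusters NFKBIA (0.97 ± 0.18, edgeR adjusted p = 0.00545) and TNFAIP3 (0.77 ± 0.19, edgeR adjusted p = 0.0425) were called. NFKB1 differed there by 0.44 ± 0.13, TNFRSF1B by -0.18, TNFRSF1A by -0.05 and RELB by -0.02. NFKBIA was thus called in each of the 3 versions, as were CCL2, PTGS2, CXCL8 and ICAM1 of the list. Of all genes 35.8%, 41.1% and 2.16% were called in these versions.

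**Figure D5:**
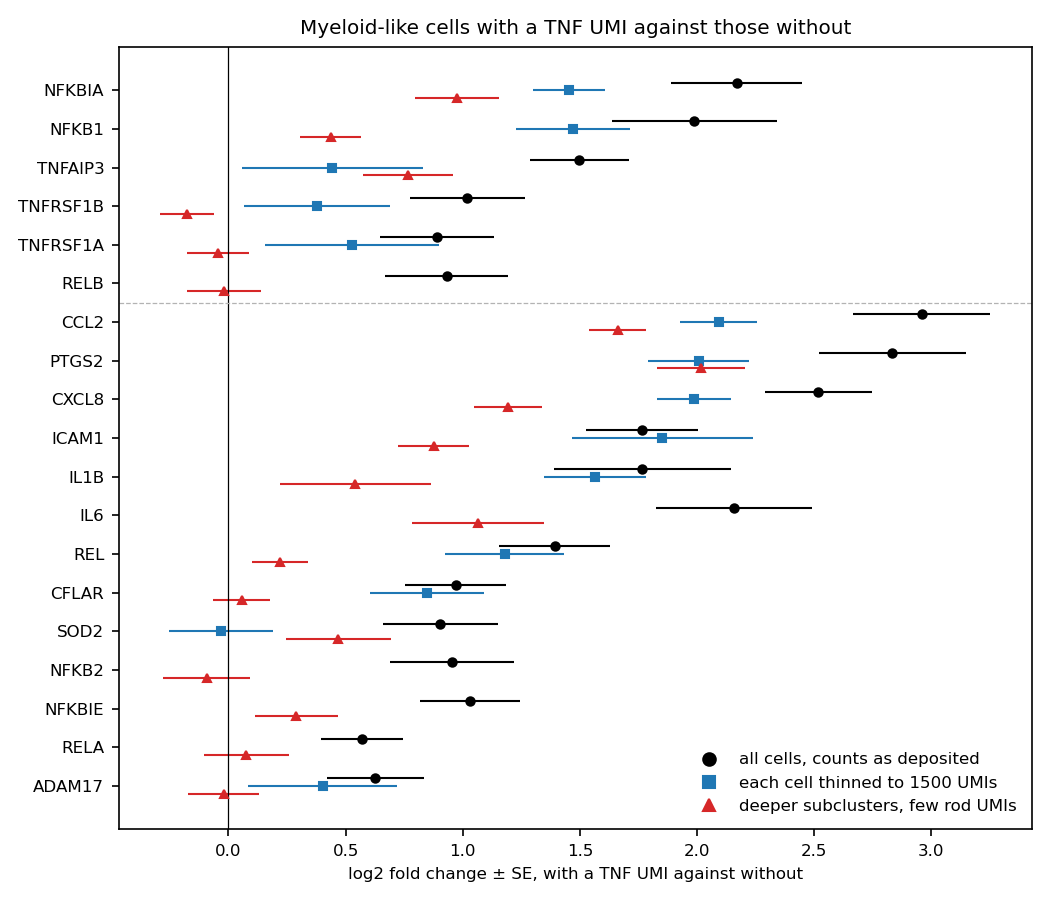
Log2 fold changes with standard errors of the other 6 genes (above the dashed line) and of called list genes in myeloid-like cells with a TNF UMI against those without, for all cells, thinned cells and deeper subclusters. NFKBIA goes from 2.17 to 1.45 and 0.97 over the 3 versions, and the receptors and RELB go to about 0 in the deeper subclusters.

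Rod-like cells that carried a vector transcript were compared with those that did not, within the 4 bleb libraries. A coRPGR UMI was found in 5252 and 4402 rods of the hRPGR blebs (92 and 1619 without), and an mScarlet UMI in 3161 and 3280 rods of the mScarlet blebs (1739 and 2471 without). Of 5 tested members 0 were called, beside 0.0295% of all genes, with 1 at an unadjusted p under 0.05 (10.5% of all genes) and 0 by DESeq2 (0% of all genes). NFKB1 differed by 0.26 ± 0.07 and was higher with the transcript in 4 of 4 libraries, NFKBIA by -0.05 ± 0.07 and TNFAIP3 by 0.00 ± 0.07. Rods with the transcript were deeper, with medians of 4744 to 6273 UMIs against 2810.5 to 4409.

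Across the 11 named classes, the genes whose mean log2(CPM + 1) was most like each member were found by Pearson's r among 13812 genes, as a description. For TNF these were CD86, BATF3 and LAT2 (r = 0.998 to 0.995), and for TNFRSF1A SMIM1, MMP14 and GALM (0.924 to 0.899). For TNFRSF1B they were ELF4, PRKCH and FLI1 (0.967 to 0.961), and for TNFAIP3 PRDM1, NEDD4 and FGD3 (0.974 to 0.907). NFKBIA was most like EEF1A1, the feature ENSMMUG00000014648 and ZFP36 (0.968 to 0.964), NFKB1 most like IKBKB, SKIL and EDEM1 (0.945 to 0.932), and RELB most like NFKB2, SP140 and ANXA1 (0.978 to 0.962). The classes share libraries and free RNA, and the part of the immune classes in these values was not tested.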

How the data were processed

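Retinal punches were dissociated with papain after the retina was lifted from the RPE, and 5′ droplet libraries were made, 1 per area and eye. The authors made UMI counts per gene and barcode with Cell Ranger 8.0.1 on Mmul_10 with the transgene sequences added. The deposited matrices are unfiltered, whole-number counts without normalization. Symbols came from the files, and 487 from a supplied gene table.

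A barcode counted as a cell from 1500 UMIs and 300 genes up, provided mitochondrial UMIs made up no more than 20% (91796 cells). Scrublet scores removed 0.8% per 1000 cells in each library (8604 cells, 9.37%), since its automatic threshold marked only 1.17%. Barcodes of 100 to 1000 UMIs gave free RNA. With scanpy 1.11.5, 3000 variable genes (without the 7 genes, the pathway list, mitochondrial genes and transgenes), 40 components and 15 neighbours gave 60 clusters. Clusters were named from markers by rules set after the clusters were seen. The myeloid-like class was clustered again, and subclusters with a median of at least 5000 UMIs and rod markers under 2000 CPM were chosen after seeing the data.

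UMIs were summed per library and class and tested by quasi-likelihood in edgeR 4.0.16 (filterByExpr, TMM normalization, Benjamini-Hochberg over all genes of a class, threshold 0.05) in R 4.3.3. Areas were fitted over the 6 NHP2 libraries, eyes over all 8 with area and animal as a term, and the splits by a TNF or transgene UMI with library as a block. DESeq2 1.42.0, RLE normalization, no filter, doublets kept, eye as a block, thinning and leaving out each library were alternatives. Scripts were tested on simulated data. Levels needed at least 10 cells per library and class. For areas, p-values measure only the spread between the 2 eyes of 1 animal within areas, and those eyes also differ in adalimumab. For eyes they rest on 8 libraries of 2 animals. For the splits they measure the spread over libraries of the difference within a library.

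The same eye of the same animal pairs the areas, by the labels. Left-minus-right deviations correlated between areas at -0.40 to 0.34 in rods and -0.13 to 0.07 in myeloid-like cells. The block is given as an alternative.

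The 7 genes, the pathway list and the marker lists were chosen with earlier results of these data known. Of the 41 pathway genes listed, 40 were in the files, and NFKBIZ was not matched by symbol. Named were the 7 genes, pathway genes past the threshold (at most 10 per fit by lowest p), the 3 genes most like each of the 7, transgenes and markers a result needed. CCL3, CCL4L1, subcluster leading genes and the NHP1 and unnamed levels were singled out after their values were seen. NF-kB consensus is the ambiguous 10-letter motif of that name.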

Additional observations from a re-analysis of the deposited data

Results flagged for a closer look

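In groups of 4 libraries per eye, 36 sets of levels were examined for a library far from the others, and 2 were found, about what chance gives at 1 in 20. TNFRSF1B in myeloid-like cells was at 337 CPM in the left eye of NHP1, against 131 to 152 CPM in the other left eyes. NFKBIA in myeloid-like cells was at 941 CPM in the right eye of NHP1, from 32 cells, against 503 to 567 CPM in the other right eyes. Both libraries are from the animal that had no AAV8 vector, so that the animal and the library cannot be told apart.

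Vector transcripts were counted where the labels give no such vector. A huRPE65 UMI was found in 47.5% of rod-like cells of the left NHP1 library, a coRPGR UMI in 19.4% of those of the right uninjected NHP2 library and in 4.61% of those of the right mScarlet bleb. The left uninjected library held no coRPGR UMI in 4715 rod-like cells, and free RNA held coRPGR at 299.8 CPM in the right uninjected library and 27.0 CPM in the right mScarlet library.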

How the results depend on the processing

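Between mScarlet blebs and uninjected areas, the 7 called list genes became 15 with DESeq2, 20 without a filter on low counts, 1 with doublets kept and 3 with the deeper myeloid subclusters in place of the class. Those 3 are the unchanged rod and glial calls, and 0 of 37 were called in myeloid-like cells. Leaving out 1 library gave 0 to 10, with 0 without the left and 2 without the right mScarlet library, and 4 without either uninjected library. With eye as a replicate block there were 5, and the block changed the count of members called in no comparison. The 1 called member became 3 with DESeq2, 5 without a filter and 0 with doublets kept or in the deeper subclusters (0 to 2 with 1 library left out). All genes were called at 4.91% with DESeq2, 4.73% without a filter, 0.914% with doublets kept and 0.0213% in the deeper subclusters (0.0965 to 4.04% with 1 library left out). TNF in myeloid-like cells lay between -3.41 and -2.85 over 12 alternatives and kept its call in 6. Between hRPGR blebs and uninjected areas list genes were 3 with DESeq2 (beside 0.262% of all genes) and 3 without a filter. Between mScarlet and hRPGR blebs list genes were 2 with DESeq2 (beside 0.987% of all genes) and 6 without a filter, and members 1 under each. Between eyes 1 member was called without a filter, TNFAIP3 in myeloid-like cells, and 0 with any 1 library left out. Without a filter all genes were called at 0.834%, 1.75% and 0.288% in these 3 comparisons.

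For TNF-positive against TNF-negative cells, the 23 of 39 tested genes called (6 members and 17 of the list) became 15 of 32 with no replicate block, 9 of 16 with thinning and 6 of 42 in the deeper subclusters (21 to 27 with 1 library left out), beside 27.2%, 41.1% and 2.16% of all genes (27.3 to 35.2%). In the deeper subclusters TNFRSF1B reversed to -0.18, NFKB2 to -0.092, TNFRSF1A to -0.046, ADAM17 to -0.020 and RELB to -0.019, and with thinning SOD2 reversed to -0.030. The cause was not tested. Without thinning, mean shares of cells with a UMI were 29.1% for TNFRSF1A, 80.5% for TNFRSF1B, 56.6% for TNFAIP3, 51.5% for NFKBIA, 33.8% for NFKB1 and 21.6% for RELB, in T/NK-like cells for TNFRSF1B and TNFAIP3 and in myeloid-like cells for the others. With 1 library left out, mean CPM in the same classes was 366 to 496 for TNF, 72.4 to 82.4 for TNFRSF1A, 445 to 492 for TNFRSF1B, 278 to 301 for TNFAIP3, 698 to 779 for NFKBIA, 292 to 332 for NFKB1 and 51.7 to 63.2 for RELB. The 6 single-gene reversals stood beside 349 values that kept direction and side of the threshold and 74 that only lost the threshold.

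Depth limits the low genes. RELB in Müller glia-like cells rests on as few as 4 UMIs in a library, TNF in myeloid-like cells of NHP1 on 32 cells in the right eye, and B-like cells were too few for a level in 5 libraries. The areas come from 1 animal.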

Other observations

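The subcluster of 20 myeloid-like cells led by CCR7 and LAMP3 also held TNFRSF1B at 338 CPM, with BIRC3, IL12B, CXCL9 and CCL17 among its leading genes and a homeostatic microglia list of 183 CPM. A subcluster of 16 cells led by cell cycle genes (MKI67, TOP2A and RRM2) had TNF at 168 CPM and RELB at 115 CPM, and came only from NHP2 blebs (3 and 2 cells of the hRPGR blebs, 5 and 6 of the mScarlet blebs). These counts of cells are too small for a comparison between areas.

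B-like cells numbered 10 in the right hRPGR bleb and 34 and 57 in the mScarlet blebs, and 2 in the other 5 libraries together. TNF in them was at 579 CPM, 126 CPM and 160 CPM. T/NK-like cells were 0.0202 to 0.398% of cells in 5 libraries, 0.925% in the right hRPGR bleb, and 2.75% and 4.25% in the mScarlet blebs, and TNF in them ranged from 0 to 33.8 CPM.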
